A study of Mus musculus with 8 samples.

Results

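MicroRNA (miRNA) precursors from imprinted loci other than Dlk1-Dio3 were examined in mouse myoblasts, the cells that divide and then fuse to build muscle fibres. They were mmu-mir-675 of H19, mmu-mir-483 of Igf2, mmu-mir-335 of Mest, and mmu-mir-296 and mmu-mir-298 of the Gnas locus, 5 members taken by precursor name out of 1181 precursors in the deposited table (called mir-675 and so on from here). The libraries were small RNA from myoblasts of old and of young C57BL/6J mice, 4 numbered libraries at each age. Each number was taken here as a mouse, and n counts libraries. The labels name no treatment and no transgene, and they give neither the ages nor the way the cells were isolated and cultured. Libraries are called here by age and number as labelled, and mir-127 served as the reference for Dlk1-Dio3. Since nothing but the numbers ties a library to an animal, p-values measure the spread between these libraries.

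An imprinted gene is transcribed mainly from the copy inherited from a given parent, as set by DNA methylation laid down in the germ line. H19, a long noncoding RNA, is expressed from the maternal copy, and its neighbour Igf2, which encodes a growth factor, from the paternal copy, with enhancers shared between them. H19 is abundant in embryonic muscle and in differentiating myoblasts, and miR-675, cut from an H19 exon, has been described in mouse cells as favouring muscle differentiation. Mest and the noncoding Nespas transcript of the Gnas locus are also paternally expressed, and mir-127, by contrast, comes from the maternally expressed noncoding RNAs of Dlk1-Dio3, antisense to Rtl1.

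On GRCm38, the assembly that mm10 names, mir-675 lies on chromosome 7 (142577064 to 142577147, minus strand) in an exon of H19. mir-483 lies 77.8 kb away on the same strand (142654924 to 142654996) in an intron of Igf2, which the annotated gene Gm49394 overlaps there. mir-335 lies on chromosome 6 (30741299 to 30741396, plus strand) in an intron of Mest. mir-296 and mir-298 lie 378 bases apart on the minus strand of chromosome 2 (174267047 to 174267125 and 174267504 to 174267585). In GENCODE M21 they overlap no gene other than their own, and the annotated end of Nespas on the same strand is 13.7 kb from mir-298. mir-127 lies on chromosome 12 (109592846 to 109592915, plus strand), opposite an exon of Rtl1.

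The deposited values are listed by precursor, so the precursors are shown first, with both mature arms in capitals (RefSeq, GRCm38.p6).
mir-675: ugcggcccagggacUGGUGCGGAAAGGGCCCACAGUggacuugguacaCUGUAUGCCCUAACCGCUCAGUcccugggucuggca
mir-483: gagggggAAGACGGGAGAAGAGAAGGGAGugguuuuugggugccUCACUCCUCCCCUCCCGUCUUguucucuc
mir-335: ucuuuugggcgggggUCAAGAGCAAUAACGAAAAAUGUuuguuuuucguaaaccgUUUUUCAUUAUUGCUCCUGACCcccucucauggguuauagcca
mir-296: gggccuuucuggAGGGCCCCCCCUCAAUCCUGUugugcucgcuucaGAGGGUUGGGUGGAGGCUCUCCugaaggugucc
mir-298: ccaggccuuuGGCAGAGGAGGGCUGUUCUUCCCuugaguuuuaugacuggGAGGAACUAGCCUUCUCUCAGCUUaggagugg

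The mature arms follow with the seed, bases 2 to 8 from the 5′ end that pair with target RNAs, in capitals, since miRNAs with the same seed have predicted targets in common.
miR-675-5p: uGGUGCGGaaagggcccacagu
miR-675-3p: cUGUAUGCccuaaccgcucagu
miR-483-5p: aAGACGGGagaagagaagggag
miR-483-3p: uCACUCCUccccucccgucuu
miR-335-5p: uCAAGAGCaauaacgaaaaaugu
miR-335-3p: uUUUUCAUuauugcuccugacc
miR-296-5p: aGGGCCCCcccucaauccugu
miR-296-3p: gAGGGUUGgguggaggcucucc
miR-298-5p: gGCAGAGGagggcuguucuuccc
miR-298-3p: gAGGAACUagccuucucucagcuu

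The 10 arms carried 10 different seeds, and no other mature sequence of the 1738 in the RefSeq table had any of them. No run of 18 bases of an arm was found in another hairpin of that table. The neighbours mir-296 and mir-298 thus share a position but not a seed. The arms of mir-335 were poor in G and C, at 30.4% for miR-335-5p and 36.4% for miR-335-3p, while the other 8 arms held 50.0% to 68.2%, against a median of 52.2% over all mature sequences.

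The table holds log2 values floored at 0 that step as reads scaled to precursor length and library size would, which implies library sizes of 25.11 to 27.96 M reads in old and 30.02 to 39.4 M reads in young libraries. On that reading values are per precursor length, which among the members runs from 73 bases (mir-483) to 98 bases (mir-335). Orders of level between precursors hold on that scale only, and how evenly different miRNAs were captured was not tested. The filter on low values kept precursors whose linear value reached 10 in 4 or more of the 8 libraries. It left 359 precursors, among them the 5 members, which reached 10 in all 8 libraries. The muscle miRNAs fixed as markers were mir-206, mir-133a-1, mir-133b, mir-1a-1 and mir-486. The log2 of their summed linear values was 21.1 to 21.75 in old and 20.33 to 22.14 in young libraries. mir-486 carried this sum, at 21.06 to 21.72 in old and 20.29 to 22.11 in young libraries. mir-1a-1 was near the floor, at 1.86 to 3.0 in old and 0.0 to 3.22 in young libraries. The blood markers mir-144 and mir-223 were at 0 in every library and mir-451a reached at most 0.89. By contrast, mir-126a of endothelium stood at 3.32 to 4.34 in old and 2.96 to 5.11 in young libraries. Of the epithelial markers, mir-203 stood at 2.82 to 3.82 in old and 3.23 to 4.76 in young libraries. mir-200c reached at most 1.74 and mir-141 at most 2.89. The neural markers mir-124-1, mir-9-1 and mir-9-2 reached at most 2.16, 1.68 and 2.21. The 4 fibroblast and smooth muscle markers were all present. The log2 of their summed linear values was 15.29 to 15.8 in old and 14.5 to 15.59 in young libraries.

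All 5 precursors were detected in every library, and their levels, per length, ran from mir-298 at the top to the sparse mir-675. Over the 8 libraries mir-298 averaged a log2 abundance of 13.44 and ranked 48th of the 359, mir-483 averaged 11.68, mir-335 averaged 11.18, mir-296 averaged 9.43 and mir-675 averaged 6.24, at rank 219. The recovered reads ran from 2472.6 to 77542.5 for mir-298 and from 28.0 to 674.2 for mir-675, so even the lowest library held reads of each. mir-298 was above mir-483 in 8 of 8 libraries, by 0.16 to 3.47 on the log2 scale. mir-483 and mir-335 could not be ordered: mir-483 was the higher in 4 of 8 libraries, with within-library differences from -1.38 to 3.54. mir-335 was above mir-296 in 6 of 8 libraries, with differences from -1.83 to 5.78, and mir-296 was above mir-675 in 7 of 8, the exception being young 4 at -0.34.

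mir-675, the H19 product, had log2 values of 5.89, 3.68, 7.44 and 8.32 in the old libraries by number, against 6.45, 5.96, 6.83 and 5.36 in the young ones. Both the highest and the lowest value belonged to old libraries, and all 4 young libraries lay inside the old range. The old mean ± SD of 6.33 ± 2.03 compares with 6.15 ± 0.64 in young mice (n = 4 each): old minus young was 0.18 ± 0.91 (SE; 95% interval -1.86 to 2.23), with an adjusted p of 0.995 in limma and an exact permutation p of 0.886, two-sided. The interval spans 3.63-fold lower to 4.68-fold higher in old libraries.

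mir-483, carried in the Igf2 gene, had log2 values of 13.0, 10.43, 12.8 and 11.22 in the old libraries by number, against 12.63, 11.06, 12.91 and 9.42 in the young ones. The groups overlapped over most of their ranges, with old 2 and young 4 the lowest of each. The old mean ± SD of 11.86 ± 1.24 compares with 11.51 ± 1.61 in young mice (n = 4 each): old minus young was 0.36 ± 0.85 (SE; 95% interval -1.54 to 2.25), with an adjusted p of 0.995 in limma and an exact permutation p of 0.714, two-sided. The distance between the H19 and Igf2 products was not constant: mir-675 minus mir-483 was -7.11, -6.75, -5.36 and -2.9 in the old libraries by number, and -6.18, -5.1, -6.08 and -4.06 in the young ones. mir-675 was therefore the lower in every library, by far least in old 4, where it was at its highest while mir-483 was below its old mean. No test of this distance was made.

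mir-335, which lies in Mest and is best known in humans for limiting the spread of breast cancer cells, had log2 values of 12.12, 8.59, 12.32 and 11.88 in the old libraries by number, against 13.21, 11.19, 9.37 and 10.8 in the young ones. Old 1, old 3 and old 4 lay close together with old 2 far below them, and in young mice the lowest library was young 3, not young 4. The old mean ± SD of 11.23 ± 1.77 compares with 11.14 ± 1.58 in young mice (n = 4 each): old minus young was 0.08 ± 0.98 (SE; 95% interval -2.10 to 2.27), with an adjusted p of 0.995 in limma and an exact permutation p of 0.943, two-sided.

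At the Gnas locus, mir-296, described in human endothelial cells as favouring blood vessel growth, had log2 values of 10.83, 6.55, 10.75 and 11.92 in the old libraries by number, against 11.17, 7.97, 11.2 and 5.02 in the young ones. Low libraries were found at both ages, and between its highest and lowest library mir-296 differed 119-fold. The old mean ± SD of 10.01 ± 2.37 compares with 8.84 ± 2.96 in young mice (n = 4 each): old minus young was 1.17 ± 1.53 (SE; 95% interval -2.26 to 4.61), with an adjusted p of 0.995 in limma and an exact permutation p of 0.600, two-sided.

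mir-298 had log2 values of 14.19, 11.28, 14.2 and 14.69 in the old libraries by number, against 14.85, 13.93, 14.82 and 9.58 in the young ones. The 6 libraries other than old 2 and young 4 stood within 13.93 to 14.85. The old mean ± SD of 13.59 ± 1.56 compares with 13.30 ± 2.51 in young mice (n = 4 each): old minus young was 0.30 ± 1.20 (SE; 95% interval -2.39 to 2.98), with an adjusted p of 0.995 in limma and an exact permutation p of 0.800, two-sided.

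**Figure D1:**
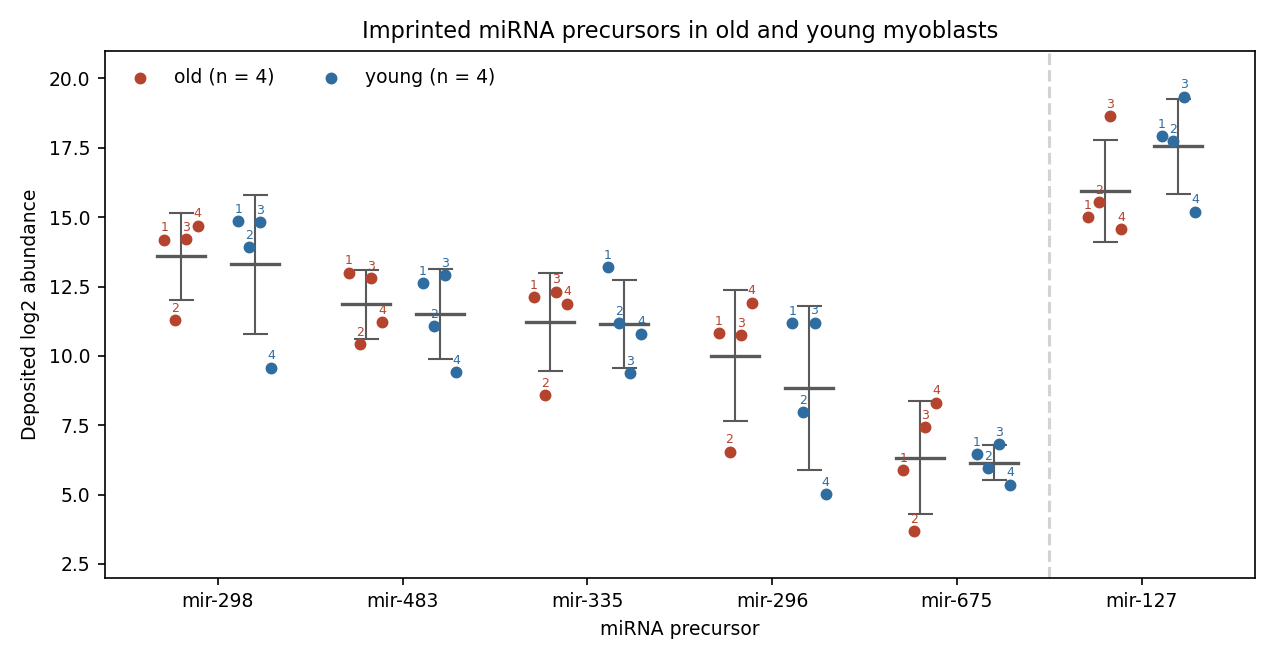
Deposited log2 abundance of the 5 imprinted precursors and of mir-127 in old (red, left) and young (blue, right) libraries, where points are libraries marked with their number and grey lines give the mean ± SD (n = 4 each). The ages overlap for every precursor, and old 2 is the lowest old library for each of the 5, from 3.68 for mir-675 to 11.28 for mir-298.

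No member passed the test for age. In limma 0 of the 5 passed an adjusted p of 0.05, against 0% of the 359 precursors tested, and 0 of the 5 had an unadjusted p under 0.05, against 1.11% of all. The groups overlapped for all 5, while 0.836% of the 359 precursors had groups that did not. The 5 means were nominally higher in old libraries, with a median difference of 0.30 against -0.05 over all tested, where 165 of 359 were higher. After quantile normalization 214 of the 359 were higher. The members' signs rested on single libraries. Without young 4 the differences were -0.08 for mir-675, -0.34 for mir-483, -0.03 for mir-335, -0.10 for mir-296 and -0.94 for mir-298. Without old 4 they were -0.48 for mir-675, -0.13 for mir-335 and -0.07 for mir-298, without old 3 they were -0.19 for mir-675 and -0.28 for mir-335, without old 1 they were -0.02 for mir-483 and -0.21 for mir-335, and without young 3 that of mir-335 was -0.51. The share of the variance over the 8 libraries that lay between the age means was 0.0854% (mir-335) to 5.99% (mir-296). The median was 4.95% over all tested precursors, and mir-127 had 21.2%. These shares are not corrected for the few libraries, so they lie above 0 even where age has no effect.

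Libraries of the same age differed widely in these precursors. Old 2 was the lowest old library for 5 of 5 members, as it was for 24.0% of all tested precursors. Young 4 was the lowest young library for 4 of 5, as it was for 18.1% of all. Both held at once for 4 of 5 members and for 4.46% of all tested precursors. These libraries were picked out by the members' own values, so the counts are a description with no test.

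In old 2, mir-296 stood 24.5-fold, mir-675 11.6-fold, mir-335 11.4-fold, mir-298 8.46-fold and mir-483 3.76-fold below the geometric mean of the other 3 old libraries. Of the 359 precursors, mir-296 was the furthest below in that library, and mir-675, mir-335 and mir-298 ranked 5th, 6th and 8th from the bottom. In young 4, mir-296 was 34.1-fold and mir-298 31.0-fold below the other young libraries, the largest and second largest shortfalls of all 359. The shortfall there was 6.87-fold for mir-483 and 2.08-fold for mir-675, and for mir-335 it was 1.37-fold. The median departure of the members was -3.52 in old 2 and -2.78 in young 4 on the log2 scale, whereas that of all tested precursors was -0.08 in old 2 and 0.82 in young 4. The low values of the members were thus not shared by the median precursor in either library.

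**Figure D2:**
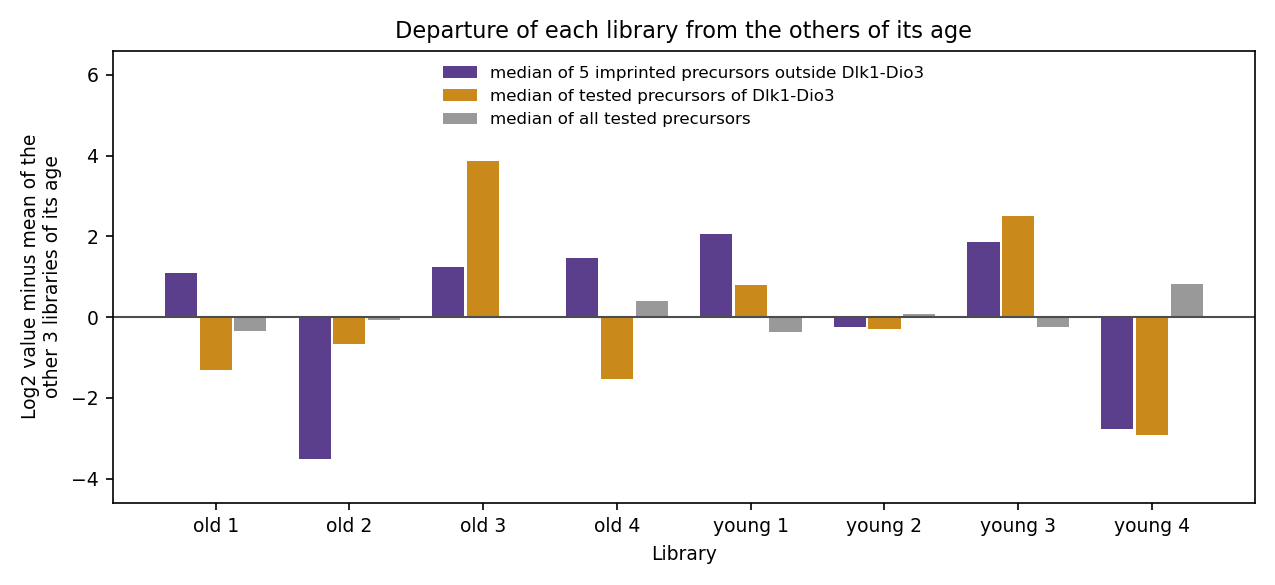
Median departure of each library from the mean of the other 3 libraries of its age, in log2 units, for the 5 imprinted precursors (purple), 37 tested precursors of Dlk1-Dio3 (ochre) and all 359 tested precursors (grey). The purple bars are lowest in old 2 at -3.52 and young 4 at -2.78, and old 3 has the highest ochre bar at 3.88.

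The median departures of the members and of the Dlk1-Dio3 miRNAs had opposite signs in old 1 and old 4 and the same sign in the other libraries. In the old libraries by number they were 1.09, -3.52, 1.25 and 1.47 for the members, and -1.32, -0.67, 3.88 and -1.53 for Dlk1-Dio3. In the young ones they were 2.07, -0.25, 1.87 and -2.78 for the members, and 0.8, -0.3, 2.5 and -2.91 for Dlk1-Dio3. No test of a difference between the sets was made. The log2 of the summed linear values of the muscle markers, carried by mir-486, was 21.1 in old 2, against 21.41 to 21.75 in the other old libraries. In young 4 it was 20.33, against 21.04 to 22.14 in the other young ones. In old 2 mir-486 (21.06) and mir-133b (10.17) were at their lowest among old libraries, but mir-206 (15.83) and mir-133a-1 (13.11) were not, and mir-1a-1 (3.0) was at its highest. In young 4 mir-206 (14.78), mir-133a-1 (11.91), mir-1a-1 (0.0) and mir-486 (20.29) were at their lowest among young libraries, and mir-133b (11.05) was not. The part of muscle marker content in the members' levels was not tested, and in such bulk libraries fewer cells making an miRNA and less of it per cell cannot be told apart.

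The spread within an age was large for all 5 members. The pooled SD within an age was 1.51 for mir-675, 1.44 for mir-483, 1.68 for mir-335, 2.68 for mir-296 and 2.09 for mir-298, against a median of 0.672 over the 359 precursors. That of mir-127 was 1.79. Other Dlk1-Dio3 precursors also spread widely. The SD of mir-541 was 1.97 in old and 1.65 in young libraries, and that of mir-673 was 1.83 in old and 1.77 in young ones. For the 218 precursors with a mean linear value of at least 100 the median was 0.611. Against precursors at or above its own mean level mir-298 had the largest SD of 48, mir-296 the 2nd largest of 125 behind mir-10b, mir-483 the 4th of 75 and mir-335 the 5th of 85. mir-675, at a low level, was 29th of 219. In these rankings mir-298, mir-541 and mir-127 stood above mir-483, and the same precursors and mir-673 stood above mir-335. mir-10b is named because it alone exceeded mir-296, and mir-10b, mir-541 and mir-673 were named after their values were seen.

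**Figure D3:**
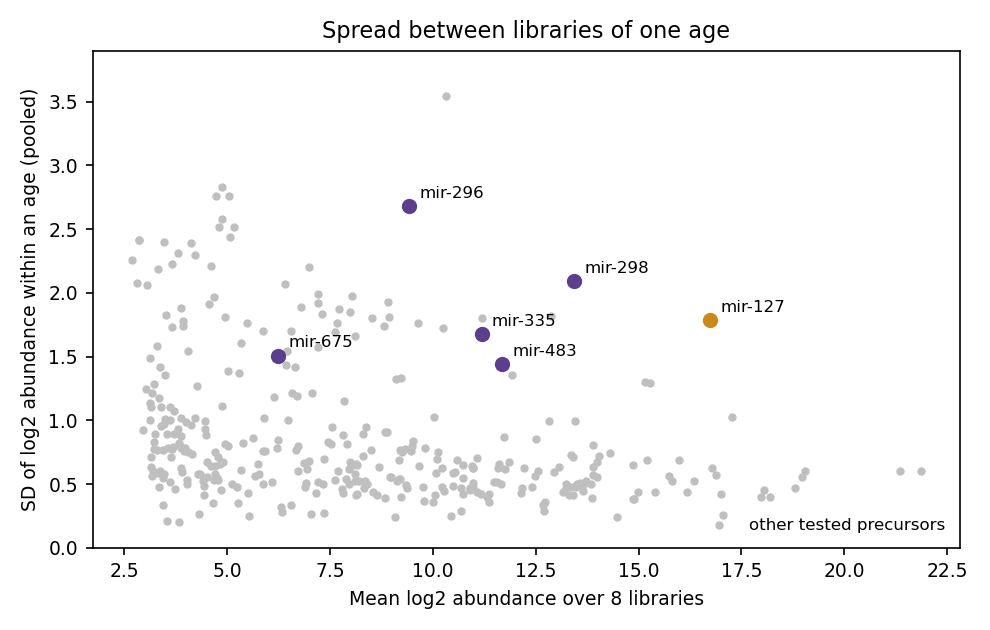
Pooled SD of log2 abundance within an age against the mean log2 abundance over 8 libraries for the 359 tested precursors, with the 5 imprinted members in purple, mir-127 in ochre and the rest in grey. mir-296 has an SD of 2.68 and mir-298 of 2.09, where the median of all tested precursors is 0.672; the grey point above mir-296 is mir-10b.

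The Gnas pair moved together. mir-296 was the precursor most like mir-298 out of 358, and mir-298 the most like mir-296, with a Pearson correlation of 0.936 and a Spearman correlation of 0.881 over the 8 libraries. Without old 2 and young 4, the libraries furthest from the median of either, Pearson's value was 0.765. mir-298 exceeded mir-296 by a log2 ratio of 3.36, 4.73, 3.45 and 2.77 in the old libraries by number, and of 3.68, 5.96, 3.62 and 4.56 in the young ones. The ratio was thus widest in young 2, old 2 and young 4, the 3 libraries lowest in mir-296. Its mean ± SD was 3.58 ± 0.83 in old mice and 4.46 ± 1.09 in young mice (n = 4 each), a gap within the spread (difference -0.88, two-sided exact permutation p = 0.229; the smallest p that 4 against 4 libraries allow is 0.0286). Without young 2 the difference was -0.38.

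**Figure D4:**
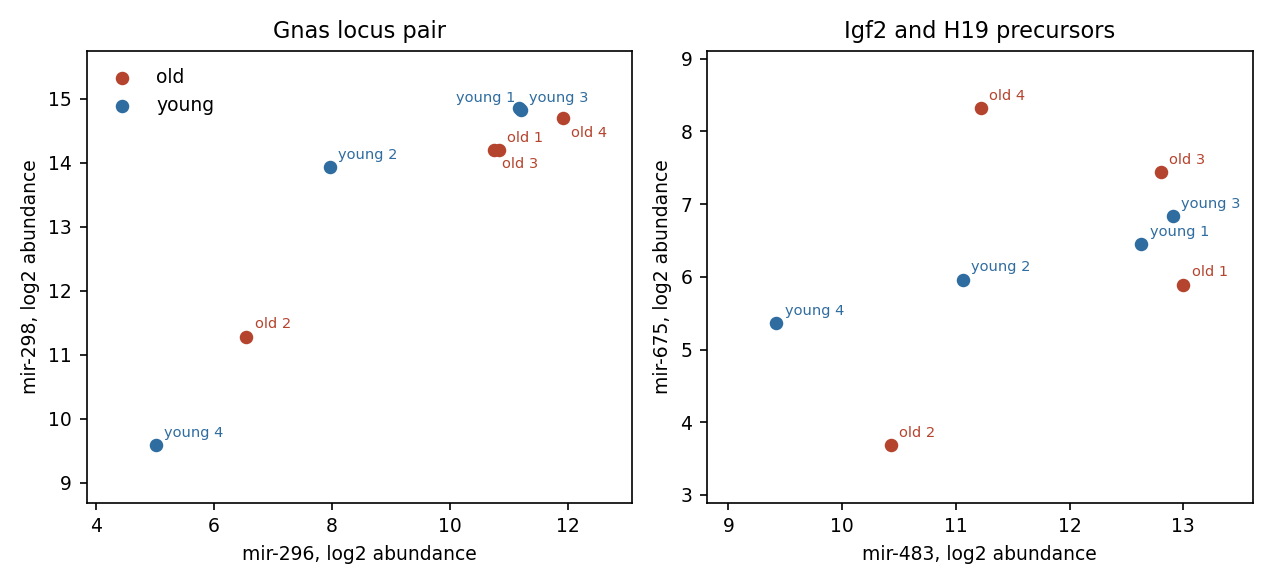
Log2 abundance of mir-298 against mir-296 (left) and of mir-675 against mir-483 (right), each point a library, old in red and young in blue. In the left panel old 2 and young 4 are low for both Gnas precursors, and in the right panel old 4 is highest for mir-675 at 8.32 with mir-483 at 11.22.

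Of the muscle markers, mir-486 and mir-133b were among the 3 tested precursors most like a member. mir-206 and mir-133a-1 were not, and mir-1a-1 fell under the filter on low values. The precursors closest to mir-483 were mir-3107 and mir-486 (Pearson 0.909 each) and mir-296 (0.849). mir-3107 lies within mir-486, a muscle-enriched miRNA of the Ank1 locus. It differed from mir-486 by 0.51 to 0.52 in every library, so that they are not separate measurements. Next after mir-298 for mir-296 came mir-3107 at 0.874 and mir-486 at 0.871. Next after mir-296 for mir-298 came mir-501 at 0.866 and mir-3107 at 0.857. For mir-675 the closest were mir-532 at 0.955, mir-6896 at 0.91 and mir-133b, a muscle-specific miRNA, at 0.888. For mir-335 the closest were mir-148b at 0.729, mir-6896 at 0.717 and mir-582 at 0.636. All are maxima over 358 precursors and 8 shared libraries, so no test is attached.

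Several of these likenesses changed when the libraries furthest from a member's median were left out. With old 2 and young 4 left out, those of mir-483 became 0.763 with mir-3107, 0.764 with mir-486 and 0.434 with mir-296, and those of mir-298 became 0.389 with mir-501 and 0.691 with mir-3107. With the same libraries left out, those of mir-296 became 0.655 with mir-3107 and 0.649 with mir-486. With old 2 and old 4 left out, those of mir-675 became 0.767 with mir-532, 0.562 with mir-6896 and 0.867 with mir-133b. With old 2 and young 3 left out, those of mir-335 became -0.0285 with mir-148b, 0.466 with mir-6896 and -0.136 with mir-582. Those of mir-335 with other members became 0.834 for mir-483, 0.8 for mir-296, 0.729 for mir-298 and 0.378 for mir-675. Over all 8 libraries they were 0.409, 0.503, 0.467 and 0.579. With old 2 and young 4 left out instead, they were 0.02 for mir-483, 0.138 for mir-296 and -0.0843 for mir-298. With old 2 and old 4 left out, that for mir-675 was 0.114. The likeness of mir-335 to the other members thus depended on which libraries were left out. mir-133b itself measured 11.1, 10.17, 13.07 and 13.28 in the old libraries by number, and 12.92, 10.85, 13.02 and 11.05 in the young ones, so that it too was lowest in old 2 among old libraries.

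mir-127, the Dlk1-Dio3 reference, had log2 values of 15.0, 15.55, 18.65 and 14.57 in the old libraries by number, against 17.93, 17.73, 19.34 and 15.2 in the young ones. It formed a low set of old 1, old 2, old 4 and young 4 and a high set of the other 4 libraries, so no pooled correlation with the members was taken as a result. By likeness it ranked 36th for mir-483, 40th for mir-298, 53rd for mir-296, 112th for mir-675 and 136th for mir-335 among 358 precursors. These ranks describe pooled correlations and rest on few libraries. Leaving out the libraries furthest from a member's median moved Pearson's value from 0.235 to 0.817 for mir-675 and 0.0202 to 0.4 for mir-335. For mir-483 it moved from 0.542 to 0.336, for mir-298 from 0.462 to 0.101 and for mir-296 from 0.303 to -0.257. Within the low set mir-298 stood at 14.19 in old 1 and 14.69 in old 4, close to its 14.2 in old 3, but at 11.28 in old 2 and 9.58 in young 4, its lowest values.

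Set against mir-127 within each library, each member had a higher mean in old myoblasts, and none of these differences passed the test in limma with age as the only term. mir-483 minus mir-127 was -2.0, -5.12, -5.85 and -3.35 in the old libraries by number, and -5.3, -6.67, -6.43 and -5.78 in the young ones. Old 3 fell among the young values and the other old libraries above them. The mean ± SD was -4.08 ± 1.74 in old mice and -6.05 ± 0.62 in young mice (n = 4 each). Their difference was 1.97, with a 95% interval of -0.48 to 4.41 (adjusted p = 0.483 in limma, exact permutation p = 0.0857).

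mir-296 minus mir-127 was -4.17, -9.0, -7.9 and -2.65 in the old libraries by number, and -6.76, -9.76, -8.14 and -10.18 in the young ones. The values overlapped, with old 1 and old 4 above all young libraries. The difference was 2.78, with a 95% interval of -0.53 to 6.09 (adjusted p = 0.483 in limma, exact permutation p = 0.171). For mir-298 it was 1.90 (exact permutation p = 0.257), for mir-675 it was 1.79 (exact permutation p = 0.229) and for mir-335 it was 1.69 (exact permutation p = 0.400).

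Each of these differences includes that of mir-127, whose mean ± SD was 15.94 ± 1.85 in old mice and 17.55 ± 1.72 in young mice (n = 4 each; difference -1.61, adjusted p = 0.995 in limma). Relative to mir-127, 340 of 358 tested precursors had a higher old mean, with a median of 1.56, beside 5 of 5 and a median of 1.90 for the members. Of the 358, 0% passed an adjusted p of 0.05 and 0.279% an unadjusted one, and 0 of the 5 members passed either. Single libraries moved the sizes by more than 1.5 times: without old 4 the difference was 0.67 for mir-675, 1.69 for mir-296, 1.08 for mir-298 and 1.02 for mir-335, without young 3 it was 0.51 for mir-335, and without old 1 it was 1.27 for mir-483 and 1.08 for mir-335. The largest difference with a library left out was 3.80, for mir-296 without old 2. None passed an adjusted p of 0.05 when any library was left out. Without old 2 mir-296 had an unadjusted limma p of 0.0321, where 1 of 358 precursors was under 0.05. Without old 3 mir-296 had 0.0440 and mir-483 0.0411, where 67 of 358 were under 0.05. Without young 4 that held for 139 of 358 and 0 members.

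**Figure D5:**
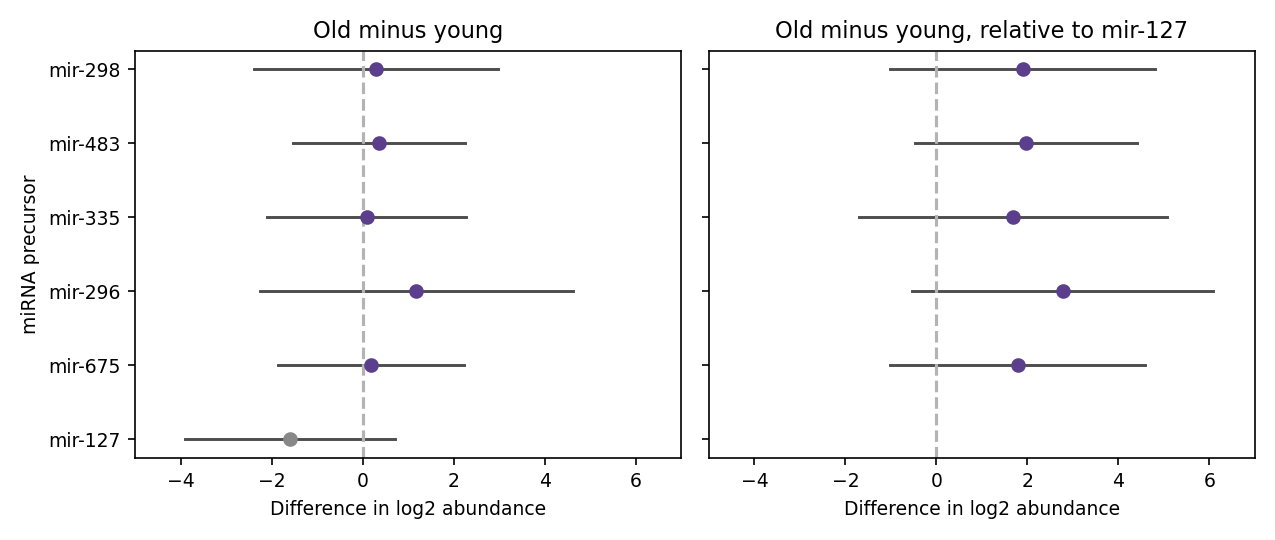
Difference in mean log2 abundance, old minus young, with its 95% limma interval, for each precursor (left) and after subtracting mir-127 in the same library (right). Every interval crosses 0; the purple points lie between 0.08 and 1.17 on the left and between 1.69 and 2.78 on the right, and the grey point is mir-127 at -1.61.

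Other imprinted miRNAs were also without calls. All 37 of the 57 listed Dlk1-Dio3 precursors that were tested had a lower old mean, with a median of -1.61, and the 6 tested of 81 in the mir-297, mir-466, mir-467 and mir-669 group, many of which lie in an intron of the imprinted Sfmbt2 gene, had a higher old mean, with a median of 0.68. In either list 0 passed in limma after adjustment, and 0 at an unadjusted p under 0.05. Precursors of a cluster are not separate measurements, and these lists are given by counts and medians only.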

How the data were processed

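Small RNA libraries, 4 from old and 4 from young mice, were sequenced on an Illumina GAIIx after extraction with a mirVana kit, per the labels. BWA and mm10 are named in the submitters' processing notes without versions; how reads were trimmed, filtered and counted is not given in the sources used here. For 1181 precursors the authors deposited normalized log2 values, floored at 0. Their scaling is not stated. Multiplied by precursor length, 99.1% to 100% of the lowest linear values of a library (111 to 216 values, up to 12 reads) were whole steps within 0.1 of a read, as RPKM values would be, and library sizes and recovered reads rest on this. Each library size was itself searched for so that this share was high. The percentages therefore describe a fit and are no independent test of the scaling. Reads are not independent molecules.

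Precursors whose linear value reached 10 in 4 or more libraries, 359 in all, were tested with limma 3.58.1 (R 4.3.3, mean-variance trend) on the deposited log2 values, and again after subtracting mir-127, with Benjamini-Hochberg adjustment over all and a threshold of 0.05. Exact permutation tests used all 70 arrangements, two-sided. The limma step was tested on simulated data with noise drawn independently for each precursor. Departures that many precursors of a library share were not simulated. Named precursors were the members, mir-127, and for each member the 3 tested precursors with the highest Pearson correlation. The members, lists and tests were chosen with earlier results of these data known. Positions are from RefSeq (GRCm38.p6, 1176 of 1181 precursors matched by symbol or synonym) and overlaps from GENCODE M21. Alternatives are given in the closing section. Python 3.11.15, numpy 2.4.6, pandas 2.3.3 and matplotlib 3.10.9 did the rest.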

Additional observations from a re-analysis of the deposited data

Results flagged for a closer look

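In 2 of 26 groups of 4 values examined, a library stood further from the rest than Dixon's 95% critical value for 4 samples allows; chance gives about 1 in 20. The log2 value of mir-335 in old 2 was 8.59, against 11.88 to 12.32 in the other old libraries (ratio 0.882). The log2 value of mir-298 in old 2 was 11.28, against 14.19 to 14.69 in the other old libraries (ratio 0.853). The next highest ratios, not flagged, were 0.825 for mir-298 in young 4, 0.783 for mir-184 in old 4 and 0.782 for mir-296 in old 2. Some of the groups are differences of values in other groups, so the 26 are not independent.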

How the results depend on the processing

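No precursor and no member passed an adjusted p of 0.05 by age in limma under any alternative planned: other filters, pseudocounts, rescalings, trend or array weights, voom on recovered reads, the replicate number as a block, or leaving out each library in turn (0 to 0). The signs of the members' differences were less stable. With each library left out in turn they ranged from -0.48 to 1.067 for mir-675, -0.338 to 0.835 for mir-483, -0.506 to 0.964 for mir-335, -0.101 to 2.327 for mir-296 and -0.943 to 1.065 for mir-298. With array weights they were -0.468 for mir-675, -0.071 for mir-483, -0.18 for mir-296, -0.792 for mir-298 and 0.313 for mir-335. In that fit young 4 had the lowest weight, 0.27, and the other libraries had 0.568 (old 4) to 1.913 (old 1). The cause of the low weight was not tested. Median-ratio, TMM and quantile rescaling turned no member's sign, with quantile normalization moving the median of all precursors from -0.05 to 0.09.

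Relative to mir-127, 0 to 0 precursors passed when single libraries were left out. With the replicate number as a block 10 of 358 precursors passed in limma, against 0 without it. Among the 10 was 1 member, mir-296 (adjusted p = 0.0223), with the other 4 members at 0.0529 to 0.0552. An unadjusted p under 0.05 was reached by 5 of 5 members and by 222 of all 358 precursors. Departures of same-numbered old and young libraries correlated at -0.06 to 0.66 and above 0.1 in 3 of 4 pairs, and 3 of 4 correlated best with their own number, a hint from the data; since 1 pair did not and the labels name no shared source, the numbers were not taken as pairs. The ratio of mir-298 to mir-296 kept its sign when single libraries were left out (-1.262 to -0.376).

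Leaving out pairs of libraries was chosen after seeing the data. Without both old 2 and young 4 the differences were -0.173 for mir-298, 0.14 for mir-483, 0.80 for mir-675, 0.85 for mir-335 and 1.053 for mir-296. Without both old 3 and young 4 the differences were -0.45 for mir-675, -0.65 for mir-483, -0.393 for mir-335, -0.347 for mir-296 and -1.147 for mir-298, with 33 precursors and 0 members called by age (mir-127 at -3.293, adjusted p = 0.00719). Relative to mir-127 there were then 312 called, the 5 members included; these libraries were picked by their Dlk1-Dio3 values, so this is no evidence of a difference with age. Depth limits mir-675 most, with 28.0 recovered reads in old 2.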

Other observations

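mir-184, which lies on chromosome 9 and has been described as imprinted in mouse, had log2 values of 4.3, 2.48, 4.36 and 11.16 in the old libraries by number, and 3.41, 3.1, 4.87 and 4.2 in the young ones. Old 4 was therefore 78.2-fold above the next highest library, the widest such gap among the 359 tested precursors, the next widest being 2.43 on the log2 scale against 6.29 here. Between old and young means it did not pass in limma (old minus young 1.68, adjusted p = 0.995, exact permutation p = 0.600, two-sided). Old 4 was also the highest library for mir-675, at 8.32, and for mir-296, at 11.92. It was not the highest for mir-483 (11.22), mir-335 (11.88) or mir-298 (14.69). The median departure of all tested precursors from the other old libraries was 0.39 in old 4. A shared cause was not tested.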
